A study of Homo sapiens with 30 samples.

Results

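The comparison examined here set a LARP6 protein without its N-terminal region (ΔNTR) beside full-length LARP6 (FL), by iCLIP in U-87 MG cells, a human glioblastoma line. It drew on the pooled peak list of each protein, made from 3 iCLIP replicates per line, and on 1 total RNA library of paired long fragments per line as the measure of transcript abundance. These are 8 of the 30 samples of the series. The FL list held 14334 peaks and the ΔNTR list 17180, of 48311 in all lists of the series, and together they touched 6473 genes.

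iCLIP crosslinks a protein to the RNA it touches with UV light, purifies the protein, and sequences the attached RNA fragments so that the crosslinked nucleotide can be located. LARP6 is an RNA-binding protein whose La-module, a La-motif followed by an RNA recognition motif, lies between an N-terminal region and a C-terminal region that are largely disordered. The protein is known for binding the 5′UTR of type I collagen mRNAs. The comparison asks what the N-terminal region adds to the choice of RNA when the La-module itself is present.

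Both lines were U-87 MG cells that carried a codon-optimised LARP6 with a myc tag at its N-terminus, expressed from a doxycycline-inducible lentiviral vector (pCW57.1) after 60 ng per mL doxycycline for 24 h. FL is the whole protein, and in ΔNTR residues 2 to 83 are missing. Each line is a drug-selected pool of cells that still has its own LARP6 gene, and the antibody used for iCLIP recognises the myc tag. Parental U-87 MG cells, which carry no construct and received the same doxycycline, gave the background peaks that the authors subtracted. Another line, ΔCTR, lacks the C-terminal region, and its pooled list (15870 peaks) serves below as a reference that uses neither FL nor ΔNTR scores. ΔCTR keeps the N-terminal region, as FL does, so this reference is not neutral between FL and ΔNTR. The replicates could not be separated within the pooled lists, so no comparison of binding has a test, and every interval given covers counting error only at the 95% level.

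The score of a peak is the whole number given by the authors' peak caller, added up where peaks of replicates were merged, and the lowest score in either list was 3. The summed score was 102788 for FL and 92958 for ΔNTR. Scores are given below as the share of that sum, the score share, so that a gain in one gene is a loss elsewhere in the same list. A position outside the peaks has no called peak, which is not a count of 0. The input libraries held 27935221 (FL), 25027075 (ΔNTR) and 26683408 (parental) counts in genes. Of the mesenchymal markers, VIM was between 7072.5 and 7986 counts scaled to library size (CPM) in these 3 libraries, FN1 between 5054 and 5667 CPM and CD44 between 2079 and 2202 CPM. The astrocyte markers did not follow the glial label, since GFAP was between 0.0358 and 0.240 CPM, AQP4 was at 0 and SLC1A3 alone (46.6 to 60.0 CPM) was well above background. The neuronal list summed to 70.0 to 73.6 CPM, most of it SNAP25, and the oligodendrocyte, immune, endothelial and epithelial lists were each under 4 CPM. Input LARP6, which does not include the codon-optimised construct, was 61.3 CPM in FL, 74.8 in ΔNTR and 53.8 in parental cells, so these counts do not check the construct.

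The sites shown first are 6 of the 8 shared sites in protein-coding genes chosen for the largest loss of score share in ΔNTR. Each line gives the 30 nt around the centre of the site, 5′ to 3′ on the transcribed strand of GRCh38, with runs of at least 5 C or T in capitals.
ACTB 3′UTR: tgTTTTTTTaatagtcattccaaatatgag
HNRNPH1 3′UTR: gtgatttatgcttactctaagtggaaatca
PGK1 3′UTR: gcatatatttatattttgcctgttaaaaag
YWHAE coding sequence: tcgagaggatctggtgtaccaggcgaagct
CTNNA1 3′UTR: ctaaatacaacactgatactagattccaca
UGP2 3′UTR: attctaaaataggcaggtactttactatgt

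ACTB encodes β-actin, and its site at chr7:5527485-5527517 on the minus strand was the strongest in both lists, with a score of 2098 in FL and 1099 in ΔNTR. Its share was 2.04% and 1.18% of the lists, a ratio of 0.579 (interval 0.538 to 0.623), and ΔCTR had 3293 there. HNRNPH1, a splicing regulator, carried 720 in FL and 245 in ΔNTR at chr5:179614718-179614736 on the minus strand, a ratio of 0.376 (0.324 to 0.436) beside 780 in ΔCTR. PGK1, a glycolytic kinase, carried 676 in FL, 256 in ΔNTR and 625 in ΔCTR at chrX:78126079-78126102 on the plus strand. The ratio of shares there was 0.419 (0.361 to 0.484).

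YWHAE encodes an adaptor that binds phosphorylated proteins, and its site lies in the coding sequence (chr17:1400078-1400097, minus strand). It went from 555 in FL to 309 in ΔNTR, a ratio of 0.616 (0.534 to 0.709). CTNNA1 encodes α-catenin, which links cadherins to actin, and its site at chr5:138934163-138934189 on the plus strand had 305 in FL and 97 in ΔNTR, a ratio of 0.352 (0.277 to 0.443). UGP2, which makes UDP-glucose, was bound in FL through this site alone (chr2:63891284-63891327, plus strand), with 158 in FL and 42 in ΔNTR. All 6 sites were called in all 3 lists, and ΔNTR had the lowest score of the 3 at each. The sites were chosen for their loss in ΔNTR, so a ΔNTR score below FL is fixed by the choice. These scores are not scaled to the sum of each list, which is largest for ΔCTR. Of the 6 sequences shown, the ACTB site alone has a run of 5 or more C or T. Among all shared FL peaks with a score of at least 50, 44.4% had such a run in the 31 nt around the centre.

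The second set shows sites that were strong in ΔNTR and had no overlapping FL peak. They are shown because they lie in genes that full-length LARP6 bound elsewhere.
ACTG1 3′UTR: TCTTTgagttcaaCCTTTagtacgtgtggc
PGK1 3′UTR, upstream of the main site: agctcaTCTTCactgcaccctggatttgca
YWHAE 3′UTR, distal: tgTTTCTTCTCCTTCCCCCTCCCCCTacct
YWHAE 3′UTR, proximal: ttgggtgttagcttgagatggttaaaggtg
CANX 3′UTR: aaggaaattgaggagagggactgaatagaa

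ACTG1, which encodes γ-actin, had 83 in ΔNTR at chr17:81510417-81510461 (minus strand), and neither FL nor ΔCTR had a called peak there. The nearest FL peak was 84 nt away. In the PGK1 3′UTR, ΔNTR had 46 at chrX:78125974-78126028, which lies upstream of the main site, and ΔCTR had 12 there. The YWHAE 3′UTR carried 41 at chr17:1344720-1344768 and 29 at chr17:1344954-1344986 (minus strand) in ΔNTR, which is 16365 and 16139 nt in the genome from the nearest FL peak, with 7 and none called in ΔCTR. CANX, the endoplasmic reticulum chaperone calnexin, had 27 at chr5:179729153-179729252 (plus strand) in ΔNTR. Of these sequences, 3 of 5 hold a run of at least 5 C or T, beside 55.8% of all ΔNTR peaks without an overlapping FL peak. A further PGK1 site (chrX:78126191-78126217, 37 in ΔNTR), which is not shown, holds none.

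**Figure D1:**
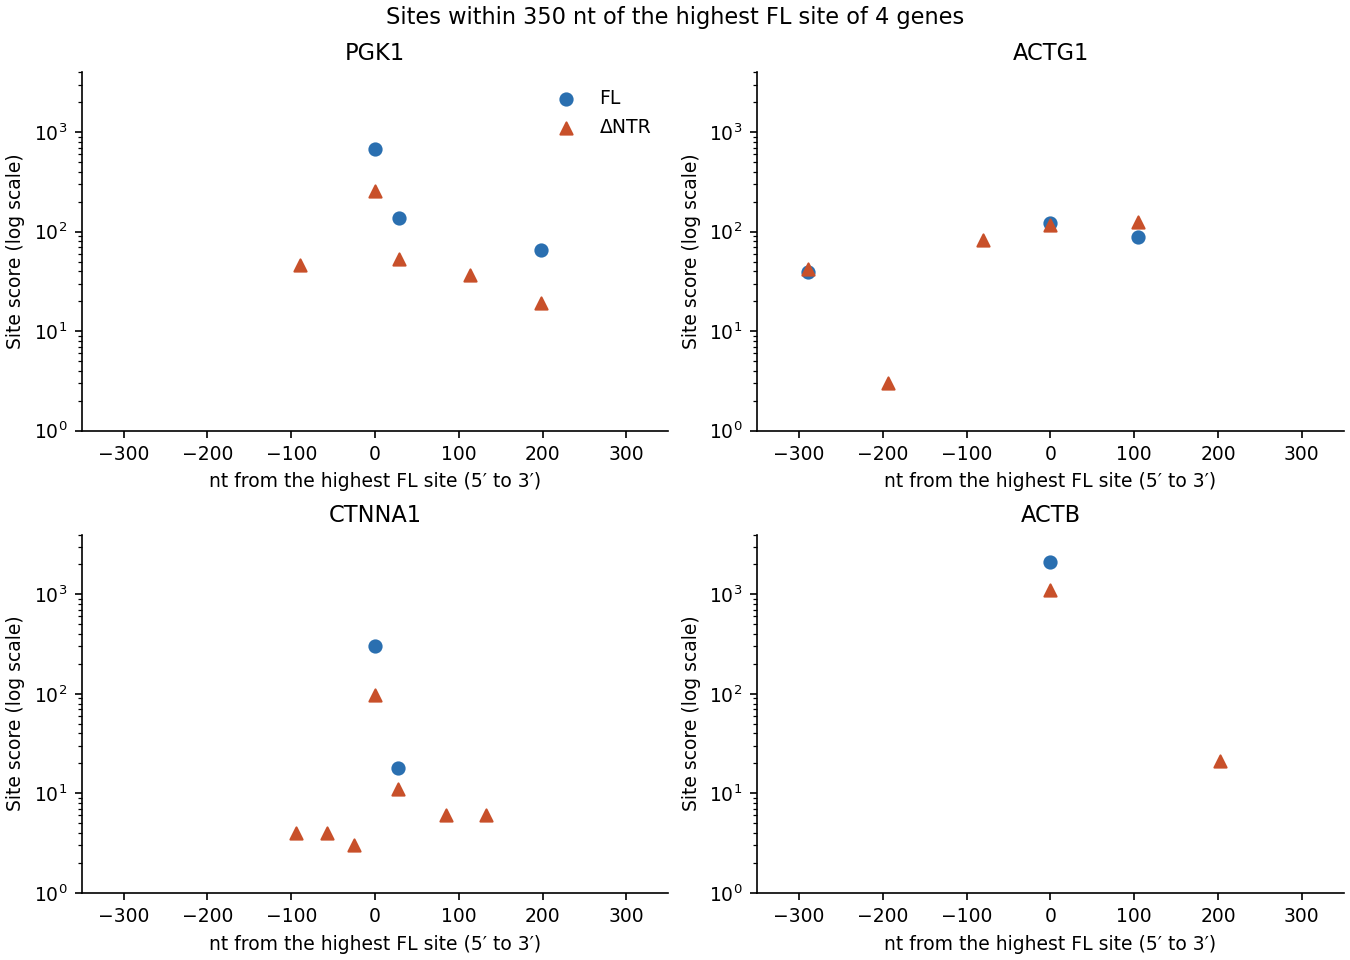
Site scores (vertical axis, log scale) against distance in nt from the highest FL site (horizontal axis, 5′ to 3′) in PGK1, ACTG1, CTNNA1 and ACTB, with circles for FL and triangles for ΔNTR. At the position of the highest FL site the triangle lies below the circle in all 4 genes, while triangles with no circle, such as the 83 in ACTG1 and the 46 in PGK1, lie to the sides.

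Across the lists, 228 of 1929 strong FL peaks (score of at least 10) overlapped no ΔNTR peak on the same strand (11.8%), and 130 of 1400 strong ΔNTR peaks overlapped no FL peak (9.29%). Most of the strong peaks of each list were therefore shared. Over all scores most peaks were not, since 9277 of 14334 FL peaks and 12017 of 17180 ΔNTR peaks overlapped none of the other list. The counts that follow were not set beside the same counts over all strong peaks. Of the 228 FL peaks, 184 were also called in ΔCTR, 195 lay in genes with a ΔNTR peak elsewhere and 91 lay within 100 nt of a ΔNTR peak. Of the 130 ΔNTR peaks, 70 were called in ΔCTR, 122 lay in genes with an FL peak and 56 lay within 100 nt of one. At a score of at least 20 the counts were 24 of 798 FL peaks and 11 of 438 ΔNTR peaks.

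The strongest sites in FL alone were at LINC01312 (80), LNPEP (60), FBXW7 (54), TBL1XR1 (48), MT-TT (32), FLNC (31), ITGA3 (28), PLEKHB2 (28), GEM (27) and MAP9 (27). ΔCTR had a peak at all 10, with scores between 15 and 138. LNPEP, an aminopeptidase of insulin-responsive vesicles, and TBL1XR1, a transcriptional corepressor subunit, were bound in the 3′UTR, whereas the sites of LINC01312 and FBXW7 were intronic. The LINC01312 site shares a stretch of at least 12 nt with 7SL RNA, the RNA of the signal recognition particle from which Alu repeats derive. FBXW7, a ubiquitin ligase subunit, had no ΔNTR peak anywhere in the gene. No fold is given for such sites, since the minimum of the caller applied to each replicate before merging.
LNPEP 3′UTR: tttaaaagtgtgtacagatgTTTTTgctat
The 10 strongest sites in ΔNTR alone also included the further PGK1 site (37) and those at VIM (23), ANKRD30BL (22), DCBLD2 (22) and ACTB (21). The ACTB site lies 202 nt downstream of the main one in the same 3′UTR. ΔCTR had no peak at 7 of the 10, and 12, 7 and 9 at a PGK1, a YWHAE and the DCBLD2 site.

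To compare genes, the score share of each gene in ΔNTR was divided by that in FL and then by the ratio of its input CPM, and the result is given as a log2 change or a fold. When FL and ΔNTR scores were added, 803 genes reached 50 or more, of which 774 also had at least 100 input counts in both libraries, and these held 66.9% of the FL score and 66.0% of the ΔNTR score. The median change was 0.01, with an interquartile range from -0.58 to 0.43. In ΔNTR, 62 genes were at least 2-fold higher (8.01%) and 95 at least 2-fold lower (12.3%), and the counting interval of the fold of each of these 157 genes did not include 1. With a summed score of at least 50, a 2-fold difference largely sets this in advance, so it adds no support to the calls. The genes nearest to the limits had changes of -1.003 and -0.995 on the lower side and 1.001 and 0.998 on the higher side.

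Genes bound in 1 list alone carried little of the score. A peak in FL alone was found in 1506 genes, which held 6.999% of its score, with a median score of 3 and a highest of 80. Another 1600 genes had a peak in ΔNTR alone and held 7.81%, with a median of 3 and a highest of 44. Most of these scores are at the lowest value the caller kept, and the part of that minimum in which list a gene entered was not tested.

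**Figure D2:**
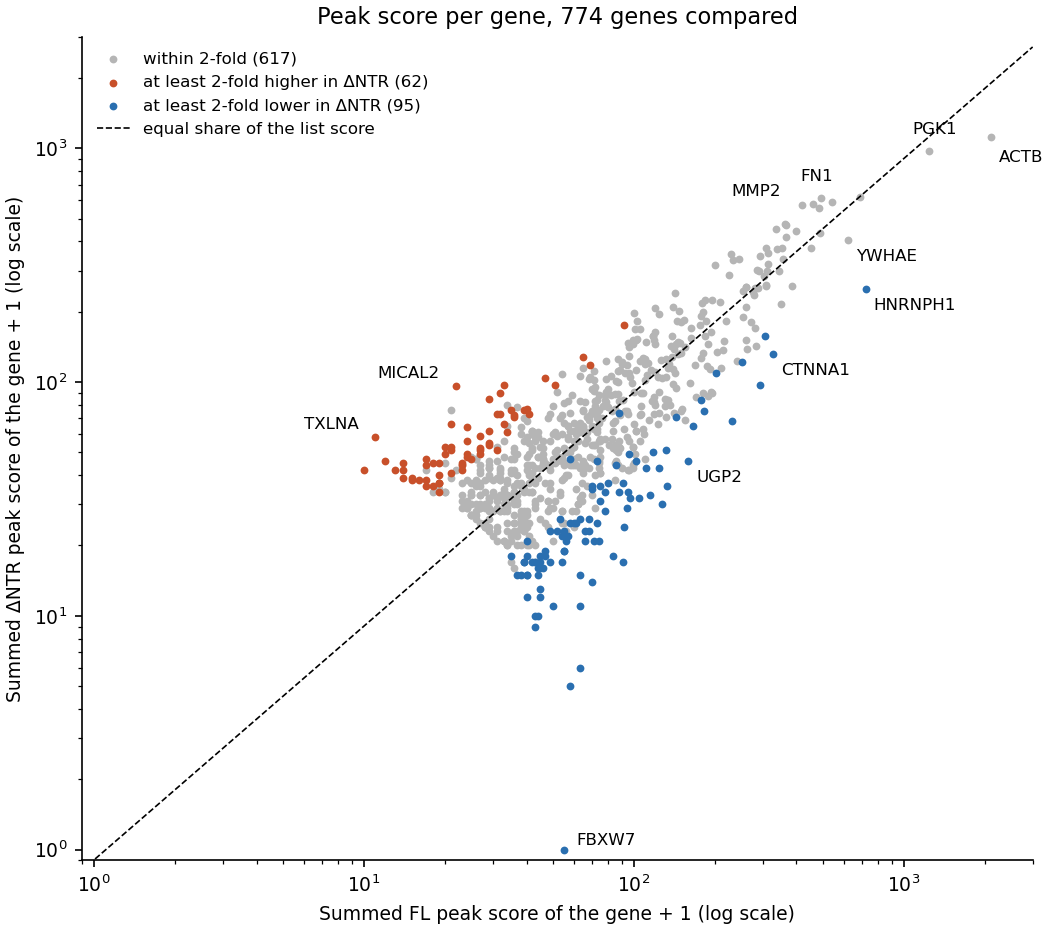
Summed peak score of each of the 774 genes compared in FL (horizontal axis, log scale, 1 added) and ΔNTR (vertical axis, log scale, 1 added), with the dashed line marking an equal share of both lists. The 62 genes at least 2-fold higher after division by input lie above the line at low to middle scores, the 95 lower genes lie below it, and ACTB, HNRNPH1, CTNNA1 and YWHAE lie below it at high FL scores.

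The 12 genes with the highest change were TXLNA, TSPAN3, MICAL2, RPL28, ERH, HNRNPA2B1, SERF2, CORO1C, BMAL2, SCRIB, ATP1B3 and TAOK1, with folds from 5.53 down to 2.90. TXLNA, a syntaxin-binding protein of vesicle traffic, went from a score of 10 in 3 peaks to 57 in 16 peaks, a change of 2.47 (interval 1.60 to 3.72). TSPAN3, a tetraspanin, went from 9 to 41. MICAL2, which oxidises actin filaments, went from 21 in 6 peaks to 95 in 23, a change of 2.00 (1.36 to 2.81). CORO1C, a coronin that binds actin filaments, went from 31 in 7 peaks to 89 in 19. HNRNPA2B1, an RNA-binding protein of splicing and transport, went from 23 to 63, and RPL28, of the large ribosomal subunit, from 11 to 45. RPL28 and HNRNPA2B1 have near-identical copies elsewhere in the genome, so that part of their reads may be assigned to the copies. In ΔCTR, RPL28 had 29 and TXLNA 33, between their FL and ΔNTR scores.

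FBXW7, RALGPS2, MAP9, PSME3IP1, PHF20, FAF2, FOXJ2, PCMT1, LRRC8A, APLN, UGP2 and AP4B1 had the lowest changes. RALGPS2, an exchange factor for Ral GTPases, had 57 in FL and 4 in ΔNTR, a change of -3.14 (-5.36 to -2.0). MAP9, a microtubule-associated protein of the spindle, had 62 and 5. FAF2, which extracts proteins from the endoplasmic reticulum for degradation, had 90 and 16, and AP4B1, of the AP-4 vesicle coat, had 126 in a lone FL peak and 29 in ΔNTR. UGP2 had 158 and 45, a change of -1.82 (-2.35 to -1.35). ΔCTR had 43 at RALGPS2, 71 at MAP9, 46 at FAF2, 112 at AP4B1 and 91 at UGP2, all above ΔNTR as scores and as shares of the list. The genes were chosen for low ΔNTR values, so this order is partly set by the choice. APLN encodes the vascular peptide apelin, and its input was 34.4 CPM in FL and 54.5 in ΔNTR, and ΔCTR had 15 beside 37 in FL and 14 in ΔNTR.

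The higher and the lower genes had peaks of different number and size. The 62 higher genes had a median of 5 peaks and a score of 22.5 in FL and of 11.5 peaks and a score of 50 in ΔNTR, and all 62 had more peaks in ΔNTR. Their highest peak held a median of 32.1% of the gene's score in FL and 16.3% in ΔNTR. The 95 lower genes had a median of 5 peaks and a score of 65 in FL and of 4 peaks and 22 in ΔNTR, and 57 had fewer peaks in ΔNTR and 24 more. Their highest peak held 58.0% in FL and 46.8% in ΔNTR, and their median input was 103 CPM beside 312 CPM for the higher genes. Among all 774 genes, 517 had more peaks in ΔNTR and 170 fewer. The medians of the 62 and the 95 genes describe genes chosen by these same scores.

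In percentage points of the list, the largest losses were at ACTB (2098 to 1120, a difference of -0.836 points), HNRNPH1 (720 to 248, -0.434), ABI2 (293 to 96, -0.182), CTNNA1 (327 to 131, -0.177), YWHAE (620 to 405, -0.168), PGK1, IST1 (230 to 67, -0.152), CAMK2N1 (305 to 156, -0.129) and MT-ND4 (283 to 142, -0.123). ABI2, of the WAVE complex that starts actin branching, changed by -1.33 (-1.69 to -1.01). IST1, which works with the ESCRT machinery in membrane scission, changed by -1.60 (-2.03 to -1.22). CAMK2N1, an inhibitor of CaM kinase II, had 131 in ΔCTR, below its ΔNTR score of 156. ΔCTR had 780 at HNRNPH1, 252 at ABI2, 381 at CTNNA1 and 199 at IST1, in each case above ΔNTR as a score and as a share of the list. These genes too were chosen for their loss in ΔNTR.

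The largest gains were at MMP2 (419 to 573, 0.209 points), FN1 (493 to 611, 0.178), COL6A3 (460 to 578, 0.174), AHNAK (335 to 450, 0.158), MYH9 (228 to 353, 0.158), DYNC1H1 (363 to 474, 0.157), FLNA (364 to 468, 0.149), TGFBI (199 to 316, 0.146), MLEC (232 to 333, 0.133) and DCBLD2 (484 to 556, 0.127). All 10 had more peaks in ΔNTR, among them TGFBI with 25 against 21 and AHNAK with 92 against 53. So had 517 of the 774 genes compared, and these 10 were chosen by their gain of score. None of the 10 reached 2-fold, and their changes ran from 0.28 (0.08 to 0.49) at FLNA, an actin crosslinker, to 0.71 (0.47 to 0.96) at MYH9, the heavy chain of nonmuscle myosin IIA. MMP2, a secreted matrix protease, changed by 0.53 (0.35 to 0.72). Its coding sequence at chr16:55479506-55479631 had 7 in FL and 51 in ΔNTR beside 17 in ΔCTR, and its strongest site had 156 in FL and 172 in ΔNTR.

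PGK1 held sites that differed in opposite directions. Peaks within 500 nt of its annotated start (chrX:78103798-78104343) summed to 356 in FL and 558 in ΔNTR, a ratio of shares of 1.73 (1.52 to 1.99), and the rest of the gene went from 882 to 416, a ratio of 0.522 (0.463 to 0.587). The block extends 450 nt upstream of the start, and the expression vector carries a human PGK1 promoter, so that RNA from the vector and from the gene cannot be told apart there. ΔCTR had 166 in the block, and the lines without the La-module or without the N-terminal domain had 11 and 8. PGK1 input was 1.36-fold higher in ΔNTR. The change of the whole gene was -0.64, and without the block it was -1.38, past 2-fold.

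The type I collagen mRNAs lay near the median of all genes, with lower 5′UTR scores and more peaks in ΔNTR. COL1A1, a chain of type I collagen, had 452 in 47 peaks in FL and 373 in 63 peaks in ΔNTR, and after division by input the fold was 1.07 (0.926 to 1.23). COL1A2, the other chain, had 280 in 26 peaks and 252 in 39 peaks, a fold of 1.17 (0.979 to 1.39). Within COL1A1, the main 5′UTR site at chr17:50201540-50201588 (minus strand) went from 92 to 39, and the neighbouring 5′UTR site at chr17:50201501-50201530 from 43 to 12. In COL1A2, the 5′UTR site at chr7:94394962-94395003 (plus strand) went from 98 to 46. ΔCTR had 111, 33 and 107 at these 3 sites. In both genes the top peak held less of the gene's score in ΔNTR, at 10.5% against 20.4% in COL1A1 and 18.2% against 35.0% in COL1A2. RPLP2, an acidic ribosomal stalk protein, had 53 and 47, a fold of 0.824 (0.543 to 1.24). LARP6 itself had 31 and 17 and was under the score minimum.

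Score at strong sites and at set distances from them could be compared across the transcriptome with a reference list that used neither FL nor ΔNTR scores. Around strong peaks of ΔCTR, the share of ΔNTR over FL was 0.641 (0.631 to 0.652) within 12 nt of the centre, 0.816 (0.787 to 0.846) at 13 to 25 nt and 0.874 (0.838 to 0.912) at 26 to 50 nt. It was 1.43 (1.36 to 1.499) at 51 to 100 nt, 1.59 (1.51 to 1.67) beyond that up to 200 nt and 1.61 (1.54 to 1.68) from there to 500 nt. Anchors taken from FL or ΔNTR themselves are chosen by the scores they compare and are not used for this. The ΔCTR anchors come from a protein that shares the N-terminal region with FL. The part of that choice in the ratios here, and in those ordered by ΔCTR score, was not tested. Ordered by the ΔCTR score of the site, ΔNTR over FL was 1.03 at scores of 3 to 9, 0.799 at 10 to 19, 0.724 at 20 to 49, 0.645 at 50 to 99 and 0.629 at 100 or more. Sites without a ΔCTR peak, wherever they lay, held 31.1% of the FL score and 46.1% of the ΔNTR score, a ratio of 1.48. The ratios of 1.43 to 1.61 beyond 50 nt are near that value, so they are not shown to be particular to the surroundings of strong sites. All 182 sites with a ΔCTR score of 50 to 99 and all 81 of 100 or more were called in FL, and 181 and 80 of them in ΔNTR.

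The same shift appears in the strength of the peaks. Peaks with a score of 100 or more held 11.5% of the FL score, 12.3% of the ΔCTR score and 4.61% of the ΔNTR score, and there were 57, 65 and 23 of them. Those with a score of 4 to 9 held 24.6% in FL and in ΔCTR and 36.0% in ΔNTR. The top 10 peaks held 5.52% in FL and 3.05% in ΔNTR, and the top 1000 held 41.9% and 29.3%. By gene the difference was small: the top 100 genes held 29.05% of the FL score and 29.04% of the ΔNTR score. At 769 genes with a score of at least 20 in both lists, the highest peak held a median of 40.0% of the gene's score in FL and 27.3% in ΔNTR, and it held less in ΔNTR at 605 genes and more at 143. The replicates of each list were merged before deposit and their depth is not known here, so the part of sequencing depth in the number of weak peaks was not tested.

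**Figure D3:**
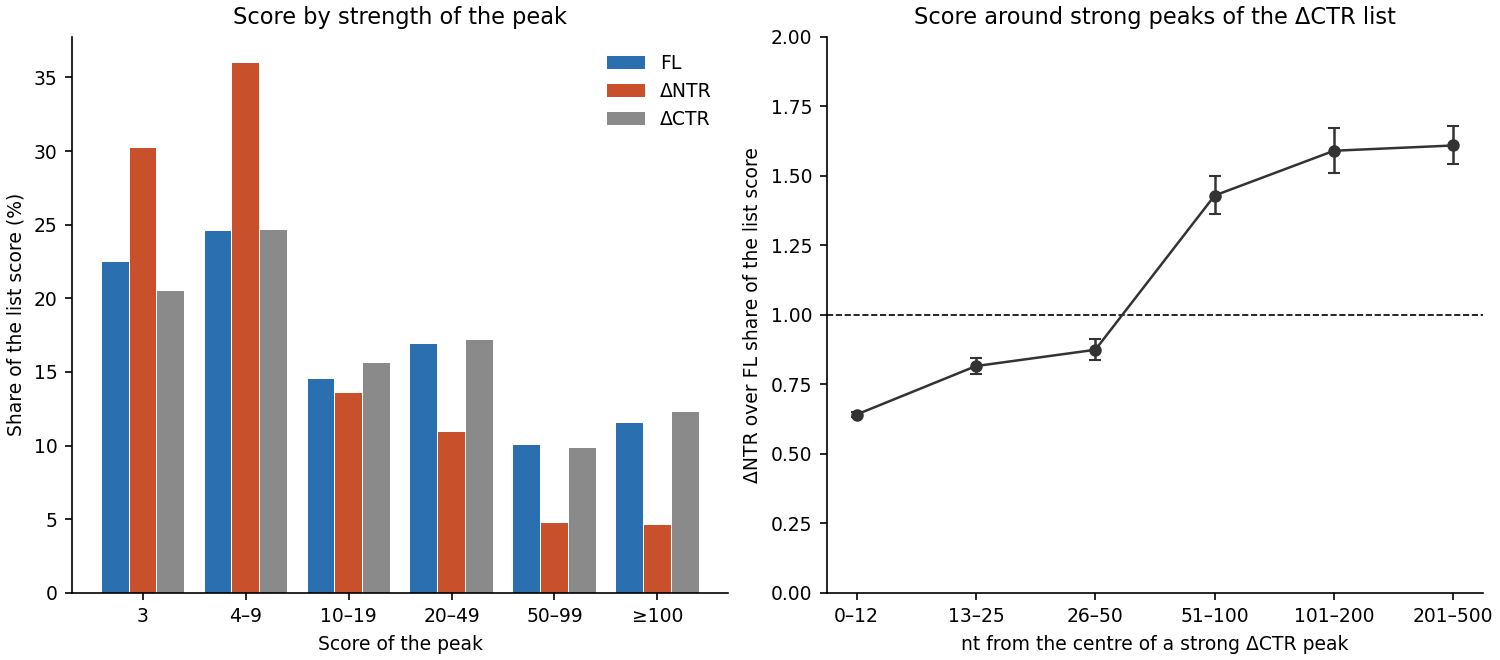
Left, share of the list score in percent (bars, axis from 0) by score of the peak for FL, ΔNTR and ΔCTR. Right, ΔNTR over FL score share (points, with 95% counting intervals) by distance in nt from strong ΔCTR peaks. ΔNTR has the tallest bars at scores of 3 and 4 to 9 and the shortest from 20 upwards, and the ratio passes from 0.641 at the centre to 1.61 in the farthest bin, up to 500 nt.

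The genes were also grouped by properties that use neither FL nor ΔNTR scores. The genes themselves entered by a summed FL and ΔNTR score of at least 50, so the groups are not free of these scores. In the group of lowest abundance the summed score was 11738 in FL and 7417 in ΔNTR. The part of this minimum in the trends below was not tested. By input abundance in parental cells, the median change from the lowest to the highest group of genes was -0.61, -0.01, 0.13 and 0.25, and the number of genes at least 2-fold lower was 63, 19, 11 and 2 of 193 or 194 in each. By the share of ΔCTR score in the highest peak, the median was 0.32 for genes with the most dispersed score (up to 25.4%), then 0.13 and -0.27, and -0.57 for genes with 57.3% or more in that peak. Over the number of ΔCTR peaks the median went from -0.32 to 0.22. By transcript length it was between 0.00 and 0.01 in every group. A gene of low abundance needs a higher score relative to its input to reach 50. The relation of abundance to concentration of score was not tested, so the 2 trends are not shown to be separate. Of all genes with at least 10 input counts, the most abundant decile held 66.9% of the FL score and 71.5% of the ΔNTR score.

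**Figure D4:**
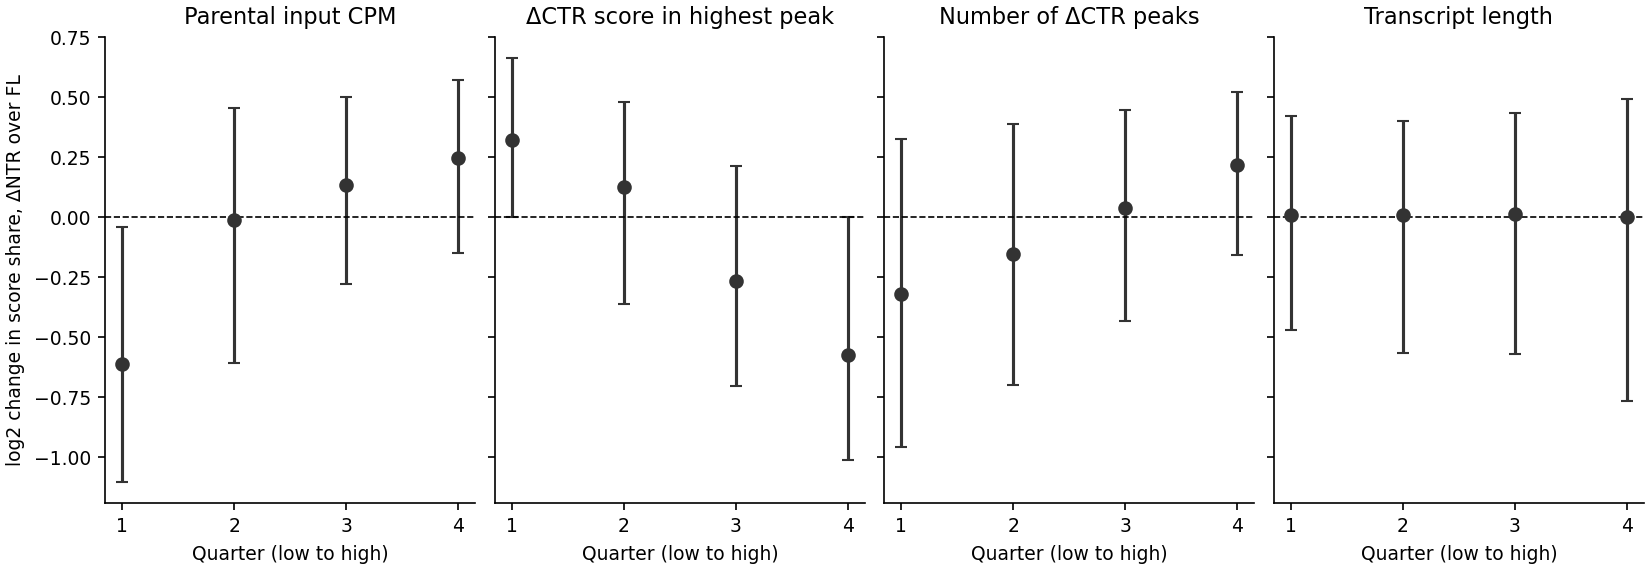
Median log2 change of the score share, ΔNTR over FL after division by input (points, vertical axis), with bars over the interquartile range of genes, in 4 equal groups of genes ordered by parental input CPM, by the share of ΔCTR score in the highest peak, by the number of ΔCTR peaks and by transcript length. The medians climb from -0.61 to 0.25 with abundance, descend from 0.32 to -0.57 with concentration in the highest peak, and stay near 0 with length.

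By function, 37 lists of genes were summed. A list is described by the ratio of its score share, without division by input, and by the change of those members that could be compared, beside 8.01% higher and 12.3% lower over all genes and an overall median of 0.01. Several lists of extracellular matrix genes held a larger share in ΔNTR. Their input was also higher, with ratios of 1.12 for matrix glycoproteins and laminins, 1.13 for other collagens and 1.07 for proteases and inhibitors. Among all genes compared, the most abundant group had a median change of 0.25 and the group with the most dispersed score 0.32. The part of abundance and dispersion in the list values was not tested. The matrix glycoproteins and laminins went from 1.32% to 1.93% of the score, a ratio of 1.46 (1.36 to 1.57), and all 8 members compared had a change above 0, with a median of 0.39 and none past 2-fold. Among these, SPARC, a collagen-binding matricellular protein, went from 102 to 182, a change of 0.84 (0.49 to 1.21). FBN1, the fibrillin of elastic microfibrils, went from 139 to 208, and TGFBI from 199 to 316. The ratio without FN1, the gene with the most score, was 1.52.

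The other collagens had a ratio of 1.27 (1.16 to 1.40) that fell to 1.12 (0.967 to 1.30) without COL6A3, and of the 4 members compared 2 had a change above 0 and 2 below. COL6A1 went from 94 to 146, and COL5A1 from 74 to 56 while its input was 385 CPM in FL and 581 in ΔNTR. Type I collagen had a ratio of 0.944 (0.847 to 1.05). Matrix proteases and their inhibitors had 1.22 (1.13 to 1.32), which was 1.08 (0.977 to 1.19) without MMP2. ADAM12, a metalloprotease of the cell surface, went the other way, from 142 to 70 (change -1.11, -1.56 to -0.70), and its highest peak held 64.1% of its score in FL and 20.0% in ΔNTR. Collagen-modifying enzymes had a ratio of 1.21 (1.08 to 1.35), yet their input was 1.25-fold higher in ΔNTR and the median change of the 7 compared was -0.21. PLOD2, a lysyl hydroxylase, and LOX, a lysyl oxidase, had scores of 115 and 112, and of 54 and 80, beside inputs of 514 and 703 CPM, and of 306 and 537 CPM.

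In the cytoskeleton, ACTB outweighed the rest. Actin and its regulators had a ratio of 0.863 (0.823 to 0.904), which was 1.16 (1.09 to 1.24) without ACTB, and 11 of 17 members compared had a change above 0. ACTG1 went from 364 to 417, a change of 0.30 (0.09 to 0.51), against -0.88 (-0.98 to -0.77) at ACTB, so the 2 nonmuscle actins had opposite signs. Tropomyosins, nonmuscle myosins and intermediate filaments had a ratio of 1.24 (1.16 to 1.33). SPTBN1, a spectrin of the cell cortex, went from 99 to 196, and VIM, which encodes vimentin, from 489 to 435 (change -0.20, -0.39 to -0.01). The mRNAs known to localise to cell protrusions had a ratio of 0.676 (0.634 to 0.720), but 1.095 (0.955 to 1.26) without ACTB. Catenins and cadherins had 0.653 (0.564 to 0.755), and 1.04 (0.836 to 1.29) without CTNNA1, with CTNNB1, β-catenin, at 139 and 113. Focal adhesion adaptors had 1.16 (1.08 to 1.24), with TLN1, which encodes talin, at 95 and 140.

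Among genes of translation, small ribosomal subunit proteins had the highest ratio of any list, 1.52 (1.32 to 1.75), from 0.334% to 0.506% of the score, with all 5 members compared above 0 and 2 past 2-fold. RPS20 went from 102 to 152 and RPSA from 22 to 43. Large subunit proteins had 1.199 (1.07 to 1.34), with RPLP1 below 0 (192 to 162) and RPL28 past 2-fold. Initiation factors had 1.24 (1.11 to 1.38), and EIF4G2, a relative of the scaffold eIF4G, had 146 in FL and a change of 0.67 (0.36 to 0.99). Elongation factors and other mRNAs with a 5′ terminal oligopyrimidine tract had 0.930 (0.825 to 1.05), and PABPC1, the cytoplasmic poly(A)-binding protein, went from 113 to 68 (change -0.50, -0.96 to -0.06). The ribosomal protein genes have many processed copies, so their counts carry the uncertainty named for RPL28.

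Mitochondrial transcripts were the list with the lowest ratio, 0.629 (0.578 to 0.684), from 1.495% to 0.940% of the score. All 11 compared had a change below 0, with a median of -0.47, and 1 was past 2-fold. MT-ND4, MT-ND5, MT-CYB and MT-CO2, subunits of the respiratory chain encoded in the mitochondrion, had 283 and 142, 187 and 144, 169 and 85, and 148 and 74. MT-ND6, which is encoded on the opposite strand from the others, went from 83 to 17. The ΔCTR list had a share of 0.903%, below both, in a protein that keeps the N-terminal region.

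The hnRNP genes had a ratio of 0.680 (0.616 to 0.750) that rested on HNRNPH1 and was 1.31 (1.13 to 1.51) without it, with 5 of 6 compared above 0. HNRNPU went from 30 to 72. RNA helicases had 0.906 (0.772 to 1.06), with 2 of 4 compared at least 2-fold lower: DHX15, a spliceosome helicase, went from 54 to 18 and DDX23 from 39 to 14. The LARP family and La had 0.678 (0.510 to 0.896), with LARP1, which binds mRNAs with a terminal oligopyrimidine tract, at 87 and 55. Sterol synthesis enzymes had 0.690 (0.572 to 0.830), although SCD, a fatty acid desaturase on that list, went from 32 to 55. Endoplasmic reticulum chaperones had 1.32 (1.19 to 1.46), with CANX at 178 and 216 and HSP90B1 at 41 and 61. Among lysosomal and membrane glycoproteins, with a ratio of 1.18 (1.097 to 1.27), 9 of 10 compared were above 0, CTSB went from 123 to 195 and the hyaluronan receptor CD44 differed little (684 and 618, change 0.02, -0.14 to 0.18).

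Cyclins and cyclin-dependent kinases had 0.938 (0.849 to 1.04), and 0.693 (0.596 to 0.804) without CCND1. CCND1, cyclin D1, had 397 and 440, whereas CCNI went from 262 to 138 and CDK12, a kinase of the polymerase II tail, from 91 to 23 (change -1.56, -2.33 to -0.93). Proteasome genes had 0.891 (0.767 to 1.03), and 2 of 5 compared were at least 2-fold lower: PSMD3, a subunit of the regulatory particle, at 38 and 16, and PSME3IP1, which shares the name stem but is no subunit. The ratio without PSME3IP1 was 1.02 (0.873 to 1.19), the median change was 0.42, and the other members compared were above 0: PSMA7 (39 and 57), PSMD2 (35 and 49) and the activator PSME3 (51 and 58). Glycolytic enzymes had 1.02 (0.959 to 1.07) beside an input ratio of 1.22. In the remaining lists, including integrins, tubulins, heat shock proteins, Rab GTPases (a list that also holds their effectors by name), histones, coats of the secretory pathway, respiratory chain subunits, iron genes, growth response factors and the TGF-β pathway, ratios lay between 0.840 and 1.22. Of the 30 lists with at least 3 members compared, 20 had a median change above 0 and 10 did not.

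**Figure D5:**
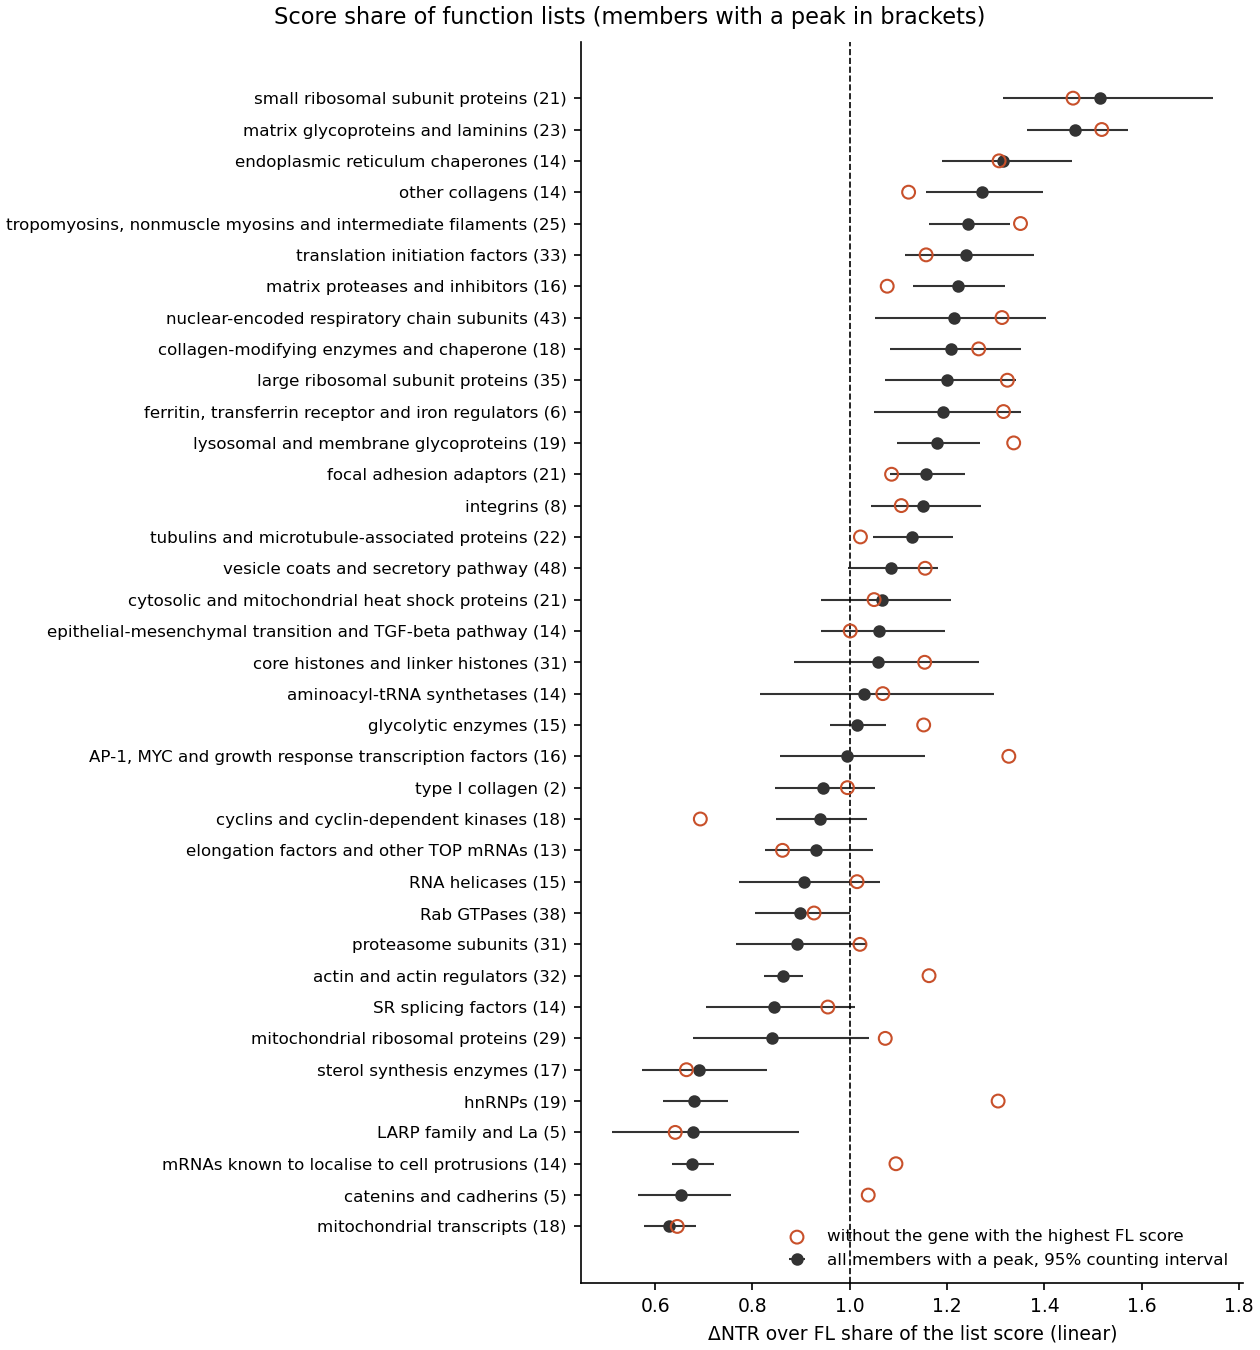
ΔNTR over FL share of the list score (horizontal axis, linear) for 37 function lists, with filled points and 95% counting intervals for all members with a peak and open circles without the gene of highest FL score. The ratio passes from below 1 to above 1 without HNRNPH1, ACTB or CTNNA1 in their lists, and stays at 0.645 for mitochondrial transcripts and at 1.52 for matrix glycoproteins.

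Regions were assigned by the centre of the peak, with coding sequence before UTRs where they overlap. The coding sequence held 32.8% of the score in FL and 34.6% in ΔNTR (a difference of 1.83 points), the 5′UTR 4.09% and 4.53% (0.449), introns 7.26% and 5.79% (-1.47) and the 3′UTR 52.3% and 52.0% (-0.362). The 3′UTR and 5′UTR directions depend on the measure. By number of peaks the 3′UTR held 47.7% in FL and 49.8% in ΔNTR and the 5′UTR 4.53% and 4.29%. By score the 3′UTR difference was 0.317 points with the 3′UTR placed before the coding sequence and 0.0565 points without the ACTB peak. The mean score of a 3′UTR peak was 7.87 in FL and 5.65 in ΔNTR. Within genes the directions were mixed, since at 744 genes the share of score in the 3′UTR was higher in ΔNTR at 305, lower at 299 and equal at 140. In AFF4, a transcription elongation scaffold, the 3′UTR held 37.8% of the score in FL and all of it in ΔNTR, and in TMSB10, an actin-sequestering thymosin, it held 33.8% and 87.2%. In PREX1, a Rac exchange factor, it went the other way, from 69.4% of a score of 36 to none of 22. CTTN, which encodes cortactin, went from 6.53% to 72.3%, but with the 3′UTR placed before the coding sequence the difference was -1.56 points, so that this shift depends on the annotation.

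Runs of pyrimidines were about equally common in the 31 nt around peaks of both lists. In the 31 nt around the centre, a run of at least 5 C or T was present in 55.3% of the FL peaks that overlapped a ΔNTR peak and in 55.0% of the others, and in 55.3% and 55.8% of the ΔNTR peaks. Windows of the same length 200 nt to either side held such a run in 54.1% and 52.1% of cases for FL (shared and alone) and in 53.2% and 53.0% for ΔNTR, a little below the peaks. In 3′UTRs the run was present in 60.9% (59.0 to 62.7) of shared FL peaks and 60.5% (58.9 to 61.9) of the others, beside 55.9% and 53.9% of the windows at their sides. The ΔNTR peaks there had 61.3% (59.5 to 63.1) and 60.7% (59.4 to 62.0), beside 54.7% and 56.0%. Within the peak itself, a run was present in 43.8% (42.77 to 44.79) of unshared FL peaks and 46.9% (45.97 to 47.75) of unshared ΔNTR peaks. Peaks vary in length, and the part of length in this difference was not tested. For unshared peaks the 31 nt gave 45.1% (FL) and 54.6% (ΔNTR) at scores of 10 to 19, with overlapping intervals. At scores of 4 to 9 they gave 55.6% and 55.1%. A match describes the window and no more. Among the strongest peaks (score of at least 50, shared) it was less common, at 44.4% (37.8 to 51.3) of 207 FL peaks and 38.5% (29.1 to 48.7) of 91 ΔNTR peaks.

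Transcript abundance differed little between the 2 lines. Of 12636 genes, 51 were at least 2-fold higher in ΔNTR (0.404%) and 8 at least 2-fold lower (0.0633%), with 1 library per line and no test, and 3 of these entered the comparison of binding. In bulk RNA, fewer cells that express a gene and less RNA per cell cannot be told apart. Among the genes compared for binding, the log2 input ratio ran from -0.45 to 1.07 with a median of 0.00, and no gene at least 2-fold higher and 6 of the 95 lower had an input difference past 1.5-fold. Without division by input the numbers were 72 higher and 91 lower.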

How the data were processed

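iCLIP of myc-LARP6 (3 replicates per line) and rRNA-depleted total RNA (1 paired-end library per line) were measured in U-87 MG cells. For the peak lists the authors removed rRNA and tRNA reads with Bowtie 2, aligned with STAR to GRCh38.p13, collapsed reads by molecular identifier with UMI-tools, called peaks per replicate with Clippy, merged the replicates with bedtools 2.30.0 while adding their scores, and subtracted the peaks of parental cells. The deposited score is a whole number that was not scaled to depth or abundance. The deposited input counts per gene came from STAR 2.7.10b after Trim Galore 0.6.10, and the reverse-strand column was used. Reads assigned to no gene (35.8% to 37.8%) were left out. The authors' small RNA libraries and the lists of the other lines were not used here, except ΔCTR as a reference and the PGK1 block.

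Peaks were assigned to genes and regions with GENCODE release 44 on the same strand, with bedtools 2.31.1 and Python 3.11.15 (pandas 2.3.3, numpy 2.4.6, scipy 1.17.1, pysam 0.24.0), and gene identifiers were matched without their version. The change of a gene is the log2 ratio of score shares with 1 added to each score, less the log2 ratio of input CPM, over genes whose FL and ΔNTR scores add up to 50 or more and that had at least 100 input counts in each library, and a call is a change past 2-fold. Intervals are exact binomial (Wilson for shares of peaks) and treat a score as a count. They cover counting error only, since replicates cannot be separated. The gene comparison was tested on simulated data. Named genes are the 12 highest and 12 lowest changes, the 10 largest gains and losses of share, the 10 strongest unshared sites of each list, up to 4 genes per function list by score, and 5 genes that the study names. Other genes in the text (SPARC, MT-ND6 and PSMD3 within lists, genes of the region comparison and of the input comparison) were named after their values were seen. The members and lists were chosen with earlier results of these data known. Alternatives were other score minima, another pseudocount, no division by input, edgeR 4.0.16 TMM scaling of the input, the unstranded counts, peaks with a score above 3, centring on the median gene, another order of regions and removal of the ACTB peak. Some items that these rules name are not reported here.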

Additional observations from a re-analysis of the deposited data

How the results depend on the processing

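No paired analysis was possible because replicates were merged into 1 peak list per line without their numbers and each line has 1 input library. Leaving out a replicate could not be done either. The cause of the differences below was not tested, except where fewer genes or peaks enter by construction. With a score minimum of 20 in place of 50, 249 genes were at least 2-fold higher and 260 lower, and with a minimum of 100 there were 17 and 41, with a median of -0.0769. Of the 157 genes past 2-fold, 122 were still called with 5 added to each score, 134 without division by input and between 154 and 157 under the other alternatives that compared all 157. All 58 that reached a minimum of 100 were still called, as were 89 of the 105 compared with peaks above a score of 3. Wherever a called gene was compared, it kept its sign. Of 1461 alternative values for 152 named genes 1435 stayed inside their counting interval and none reversed.

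With the 3′UTR placed before the coding sequence, the 3′UTR difference was 0.317 points and that of the coding sequence 1.15 points. Among peaks with a score above 3, the 5′UTR difference was 0.764 points of score and the intron difference -1.32 points of peaks. With a minimum of 50 at each gene, the share was higher in ΔNTR and lower at 140 and 127 genes for the 3′UTR, 124 and 136 for the coding sequence, and 89 and 56 for the 5′UTR. Without the ACTB peak, the difference between the lists was -1.73 points for the top 10 peaks and -4.74 for the top 100, and for the top 10 genes it reversed from -0.559 to 0.272 points, with 0.596 for the top 100 genes. Unshared strong peaks made up 8.87% (FL) and 6.86% (ΔNTR) when no peak of the other list lay within 25 nt, and 3.01% and 2.51% at a score of at least 20. Around anchors of at least 20, the ratio was 1.41 at 51 to 500 nt from FL peaks, 0.616 and 1.41 within 12 nt and at 51 to 500 nt of ΔCTR peaks, and within 12 nt of ΔNTR peaks it reversed from 1.08 to 0.936. The most abundant decile differed by 4.22 points with parental input for both. Runs of C or T within the peak itself were found in 53.8% (shared) and 43.8% (alone) of FL peaks and 53.9% and 46.9% of ΔNTR peaks, and in the 3′UTR alone in 60.9%, 60.5%, 61.3% and 60.7%. With at least 20 input counts, 447 genes were higher and 229 lower in input.

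The number of crosslinks behind each list limits how weak a site can be seen: the lowest score is 3, and depth per replicate is not known here. A share depends on the whole list, so a loss at strong sites raises the share of others. The intervals leave out the spread between cultures and between the pooled cell lines.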

Other observations

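In the input libraries, the 5 genes with the highest ratio of ΔNTR to FL were DEPP1, GPR146, ANGPTL4, CHAC1 and ZP1, chosen by that ratio among genes with at least 100 counts over both libraries. DEPP1 had 7.05 CPM in FL and 26.6 in ΔNTR (3.76-fold, counting interval 3.21 to 4.44) beside 3.60 in parental cells. ANGPTL4, an inhibitor of lipoprotein lipase, had 9.56 and 29.8 CPM (3.11-fold, 2.71 to 3.60) beside 7.27, and GPR146 had 2.76 and 9.55 CPM beside 1.61. DEPP1 had a peak score of 3 in both lists, and ANGPTL4 and GPR146 had no peak in either. Each value comes from 1 library, so differences of culture and of the expressed protein cannot be told apart.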
